A study of Homo sapiens with 8 samples.

Results

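Small nucleolar RNA host transcripts are RNA polymerase II transcripts whose introns carry small nucleolar RNAs (snoRNAs). The 10 described here are GAS5, SNHG1, SNHG3, SNHG5, SNHG6, SNHG7, SNHG8, SNHG12, SNHG15 and ZFAS1. They were chosen by symbol, all 10 were found among 55737 genes, and all 10 passed the filter on low values. RNA was sequenced from LNCaP cells, a human prostate cancer line that came from a metastasis in a lymph node and secretes prostate-specific antigen.

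All cells were treated for 4 hours, in 4 groups of 2 libraries. The groups were OSMI-2 at 40 µM, AT7519 at 0.5 µM, both agents at those doses (called the combination), and a control whose vehicle the labels do not name. The µM doses come from the series design, whereas the samples' treatment field states mM with equal figures. OSMI-2 blocks O-GlcNAc transferase (OGT), the enzyme that puts single sugars on proteins of nucleus and cytosol. AT7519 blocks a set of cyclin-dependent kinases that includes CDK9, which releases paused RNA polymerase II into elongation. The series asks how far cells with blocked OGT depend on CDK9.

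In a host gene the snoRNAs are cut out of spliced and debranched introns, so transcription and splicing of the host supply them. Box C/D snoRNAs guide 2'-O-methylation of ribosomal RNA and box H/ACA snoRNAs guide pseudouridylation or, for U17, cleavage of the ribosomal RNA precursor. The spliced host RNA that is left codes for no known long protein, and several hosts are known substrates of nonsense-mediated decay. Many hosts share with ribosomal protein genes a start within a run of pyrimidines (the 5' terminal oligopyrimidine type).

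Start regions are shown as a description, and their relation to the changes with AT7519 was not tested. RefSeq promoter sequences (GRCh38.p14) matched 8 of the 10 members by symbol, and 6 are printed. Each line gives the 50 bases before the annotated start and the 50 bases from it, on the gene's strand, from GRCh38.p14, which is not the build behind the counts. Capitals mark TATAA lying 40 to 16 bases before the start, or a C followed by at least 4 C or T. That C had to lie within 10 bases of the start and to follow neither C nor T, unless it stood at the start itself. The intervals are chr6:85678684-85678783 (minus strand) for SNHG5, chr4:118278712-118278811 (plus) for SNHG8, chr1:28581824-28581923 (minus) for SNHG12, and chr20:49278592-49278691 (plus) for ZFAS1. They are chr1:173868996-173869095 (minus) for GAS5 and chr11:62855836-62855935 (minus) for SNHG1.
SNHG5: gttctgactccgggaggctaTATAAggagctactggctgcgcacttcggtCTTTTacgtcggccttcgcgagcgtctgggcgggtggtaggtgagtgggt
SNHG8: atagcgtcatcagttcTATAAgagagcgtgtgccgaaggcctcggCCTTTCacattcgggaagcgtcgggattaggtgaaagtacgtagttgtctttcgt
SNHG12: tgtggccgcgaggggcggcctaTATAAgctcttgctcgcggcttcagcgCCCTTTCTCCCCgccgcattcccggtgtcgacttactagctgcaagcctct
ZFAS1: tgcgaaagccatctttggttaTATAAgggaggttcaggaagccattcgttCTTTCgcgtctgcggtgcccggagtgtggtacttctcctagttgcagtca
GAS5: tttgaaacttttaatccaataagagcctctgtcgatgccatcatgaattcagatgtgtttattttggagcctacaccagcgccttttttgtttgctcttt
SNHG1: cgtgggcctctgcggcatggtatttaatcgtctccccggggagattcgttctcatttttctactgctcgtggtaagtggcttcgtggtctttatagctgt

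The letters TATAA, searched on the gene's strand alone, lay in that stretch in 5 of the 8 members (SNHG5, SNHG7, SNHG8, SNHG12 and ZFAS1), and in 3.91% of 35116 promoters of the same length. The pyrimidine run, by the rule above, lay at the start in 4 of the 8 (the first 4 printed), and in 26.1% of all promoters. SNHG7 has a C followed by 4 C or T at its start, but that C follows a T, so it was not counted. Both searches were chosen after the sequences had been read, and a match describes letters only. They rest on the annotated start used for each gene. The GAS5 line, for example, holds a longer run of C and T further downstream that was not counted.

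A few of the snoRNAs described below are shown as well, since their rows rose with AT7519. They are GENCODE release 29 transcripts of GRCh38, on chr20:49280683-49280772, chr20:49280319-49280409 and chr20:49278940-49279028 (plus strand) for the ZFAS1 snoRNAs SNORD12, SNORD12B and SNORD12C, and on chr1:28508559-28508762 (plus) for SNORA73B, a U17 snoRNA of SNHG3. Each lies within its host's span. Capitals mark the box C core TGATGA and the last CTGA of the box C/D snoRNAs, and the ACA near the end of the box H/ACA snoRNA.
SNORD12: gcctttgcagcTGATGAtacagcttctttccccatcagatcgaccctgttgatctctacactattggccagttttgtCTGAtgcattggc
SNORD12B: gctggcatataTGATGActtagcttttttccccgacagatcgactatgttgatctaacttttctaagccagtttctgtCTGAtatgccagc
SNORD12C: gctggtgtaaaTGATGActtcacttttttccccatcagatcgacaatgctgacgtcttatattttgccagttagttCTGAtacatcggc
SNORA73B: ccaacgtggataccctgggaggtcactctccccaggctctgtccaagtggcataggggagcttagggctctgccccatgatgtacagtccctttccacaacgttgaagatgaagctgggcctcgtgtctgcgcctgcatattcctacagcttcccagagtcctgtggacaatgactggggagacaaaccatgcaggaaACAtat

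The libraries held 60152710 to 154367238 reads assigned to genes. Values are normalised read counts as deposited, and errors are SDs over the 2 libraries of a group. The labels do not say whether the replicates came from separate cultures, and the p-values cover no more than the spread among these 8 libraries, which could be technical. How often the 2 libraries of a group lie clear of another group was not counted over all genes. Statements below that groups did not overlap therefore only describe the libraries. Of 12 luminal prostate markers all 12 were detected in every library, KRT8 at 30017 to 50037 counts, and PTPRC, CD68, COL1A2, DCN, KRT5, TP63 and CHGA lay at or near 0 (at most 7.29 counts). COL1A1 (1814 to 3726 counts), VWF (1132 to 1506), KRT14 and SYP were present, 1 of these 4 was called higher with AT7519 and 2 with the combination, and their part in the results was not tested. The share of counts on mitochondrial mRNAs was 6.57% to 7.73% in the 4 libraries with AT7519 and 4.45% to 5.53% in the 4 without, and its part in the results was tested only as a scale. Every change is therefore relative to a scale. On the deposited one the median gene changed by -0.004 (log2) between AT7519 and control, and with mitochondrial mRNAs set equal it changed by -0.911. In bulk RNA, fewer cells of a type and less RNA per cell cannot be told apart.

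**Figure D1:**
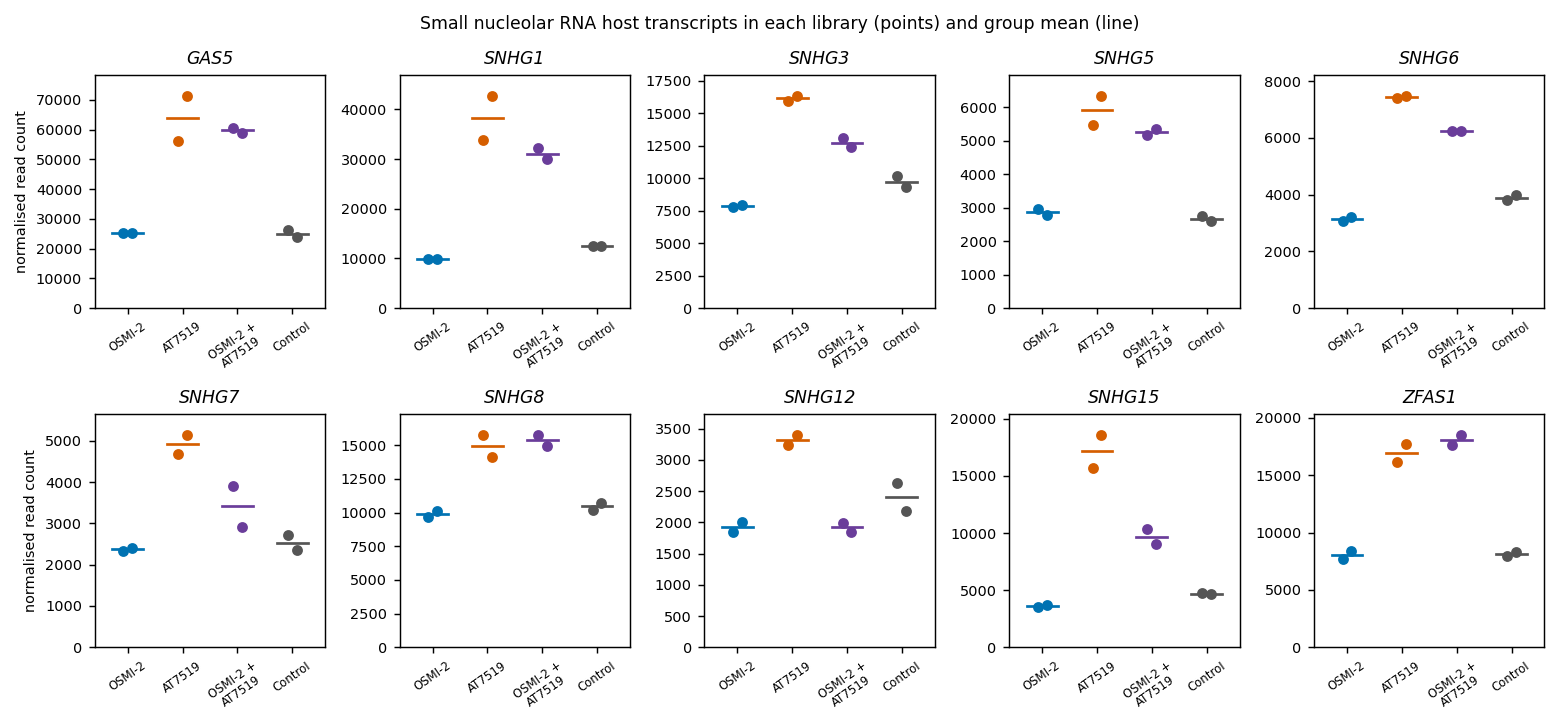
Normalised read count (vertical axes, from 0) of each host transcript in every library, with OSMI-2, AT7519, the combination and control from left to right; points are libraries and lines are group means. For all 10 transcripts both AT7519 libraries lie above both control libraries, and for SNHG12 both combination libraries lie below both control libraries. How many of all genes separate in this way was not counted.

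AT7519 was set against control to ask what inhibition of CDK9 and its relatives did to these transcripts. All 10 host transcripts rose on the deposited scale (limma, Benjamini-Hochberg adjusted p below 0.05), whereas 26.0% of the 19393 tested genes were called higher and 27.2% lower. Their median log2 change was 1.005, against -0.004 over all tested genes. SNHG15 rose most, 3.64-fold, and SNHG12 least, 1.38-fold. With mitochondrial mRNAs set equal, GAS5, SNHG1 and SNHG15 stayed higher, SNHG8 and SNHG12 were lower, SNHG3 changed sign without a call, and SNHG5, SNHG6, SNHG7 and ZFAS1 lost their calls. On that scale 383 of the 19393 tested genes were called higher and 14656 lower.

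Among hosts of box C/D snoRNAs, GAS5, whose RNA is known to bind the glucocorticoid receptor and to accumulate in growth-arrested cells, had 56315 and 71384 counts with AT7519 and 26274 and 23743 in control. GAS5 rose 2.54-fold (log2 change 1.34, SE 0.096, limma adjusted p = 1.32e-07). SNHG1, the host of a run of C/D snoRNAs from SNORD22 to SNORD31, had 33773 and 42732 counts with AT7519 and 12429.8 and 12509 in control. The control libraries were nearly equal and the AT7519 libraries lay further apart, yet the groups stood clear of each other. The change was 3.05-fold (log2 1.61, SE 0.095, limma adjusted p = 3.50e-08).

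SNHG5, the host of the SNORD50 pair, had 5474 and 6339 counts with AT7519 and 2735 and 2598 in control. ZFAS1, which hosts the SNORD12 family and runs antisense to the start of the zinc finger gene ZNFX1, had 16133 and 17719 counts with AT7519 and 7971 and 8329.5 in control. SNHG6, the host of SNORD87, had 7388 and 7483 counts with AT7519 and 3798 and 3992 in control. In all 3 the AT7519 libraries lay far outside the control pair. The rises were 2.21-fold for SNHG5 (log2 1.14, SE 0.095), 2.07-fold for ZFAS1 (1.05, SE 0.081) and 1.91-fold for SNHG6 (0.93, SE 0.082), with limma adjusted p of 4.09e-07, 2.35e-07 and 6.41e-07 in that order.

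Hosts of box H/ACA snoRNAs held both the largest rise and one of the smallest. SNHG15, the host of SNORA9, had 15726 and 18569.7 counts with AT7519 and 4725 and 4662 in control (log2 change 1.86, SE 0.095, limma adjusted p = 1.10e-08). It ranked 361st from the highest of all tested genes in this comparison. SNHG3, the host of the U17 snoRNAs SNORA73A and SNORA73B, had 15929 and 16327 counts with AT7519 and 10136 and 9319 in control. SNHG3 rose 1.66-fold (log2 0.73, SE 0.077, limma adjusted p = 2.87e-06), and its AT7519 libraries were close to each other.

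SNHG7, the host of the SNORA17 pair, had 4688 and 5137 counts with AT7519 and 2716 and 2352 in control. SNHG8, the host of SNORA24, had 15725 and 14105 counts with AT7519 and 10229 and 10690.3 in control. Neither pair of groups overlapped. The rises were 1.94-fold for SNHG7 (log2 0.96, SE 0.13, limma adjusted p = 2.16e-05) and 1.42-fold for SNHG8 (0.51, SE 0.080, limma adjusted p = 9.31e-05). With totals set equal SNHG8 was no longer called (log2 0.17).

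SNHG12 carries both snoRNA classes, with 3 H/ACA snoRNAs and the C/D snoRNA SNORD99. It had 3232 and 3398 counts with AT7519 and 2636 and 2178 in control, a rise of 1.38-fold (log2 0.47, SE 0.11, limma adjusted p = 0.00256). Its control libraries were further apart than its AT7519 libraries. The call was lost without control replicate 2 (log2 0.33) and with totals set equal (0.12).

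**Figure D2:**
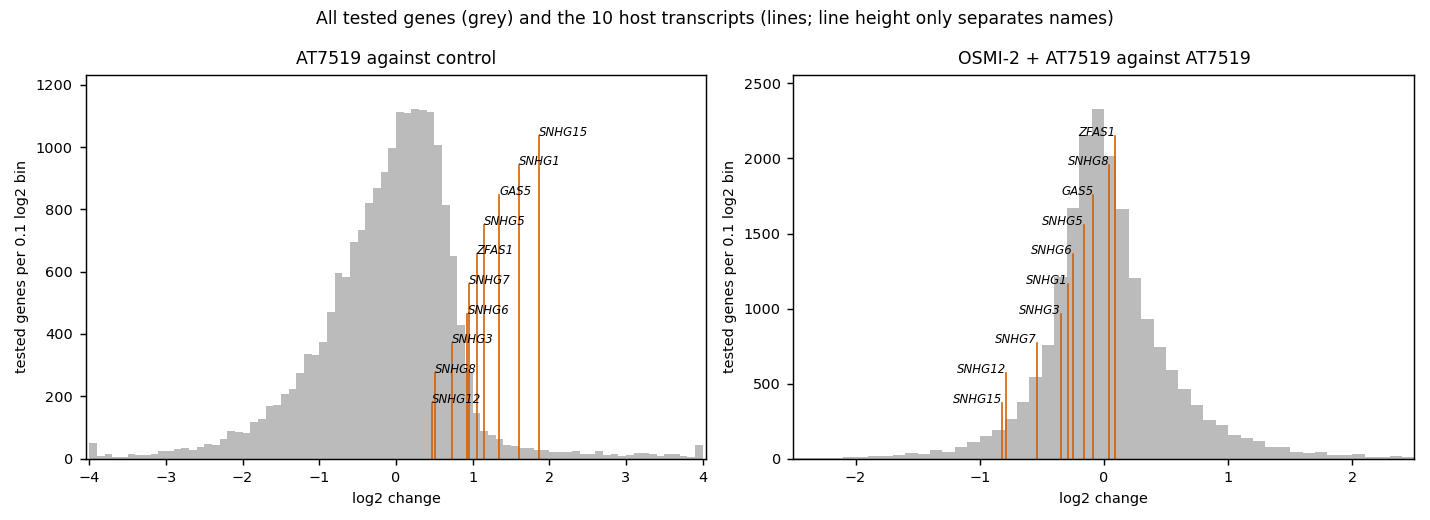
Number of tested genes (vertical axis) by log2 change in bins of 0.1 (horizontal axis), for AT7519 against control and for the combination against AT7519. Grey bars are the 19393 tested genes, and orange lines mark the 10 host transcripts. The outermost bins of the first panel hold genes beyond the range drawn. The second panel is cut at -2.5 and 2.5 and leaves out the genes beyond. With AT7519 all 10 lines lie above 0, from 0.47 for SNHG12 to 1.86 for SNHG15, while the grey mass is centred near 0.

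Some snoRNAs have rows of their own, which count reads on the snoRNA interval whether from mature snoRNA or from unspliced host RNA. Of 34 snoRNAs listed for the 10 hosts, 24 had a row, 13 of those were at 0 in every library, 4 were below the filter, and 7 were tested. A row at 0 does not show that the snoRNA was absent, since how reads shared with the host were counted was not tested. All 7 rose with AT7519 on the deposited scale, with a median log2 change of 1.997, where 26.0% of all tested genes were called higher. On the scale of equal mitochondrial mRNAs 5 of the 7 were called, all higher, where 383 of the 19393 tested genes were called higher. A row that passed through its AT7519 libraries had to differ, and SNORD12C, the row at the median of 1.997, is such a row. The count of 7 and that median are therefore no support for the hosts. The sources used here do not give the fragment sizes that the libraries kept.

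The SNORD12 family in ZFAS1 rose by larger folds than the 2.07-fold of its host, a difference that was not itself tested. SNORD12 had 756 and 989 counts with AT7519 and 119 and 160.2 in control, a 6.23-fold rise (log2 2.64, SE 0.20, limma adjusted p = 2.18e-07). Per 1000 counts of ZFAS1, SNORD12 had 46.8 and 55.8 counts with AT7519, 47.7 and 45.2 with the combination, 20.2 and 14.5 with OSMI-2, and 14.9 and 19.2 in control. All 4 libraries with AT7519 stood above all 4 without it. SNORD12B rose 6.03-fold (log2 2.59, SE 0.30, limma adjusted p = 6.52e-06). SNORD12C had 35.5 and 38.6 counts in AT7519, 8.82 and 8.24 in control and 4.91 and 9.11 with OSMI-2 (log2 1.997 for AT7519 against control, SE 0.52). It passed the filter, a mean of at least 10, only through the libraries with AT7519, so its call is no support for a rise.

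In SNHG15, SNORA9 rose 5.05-fold with AT7519 (log2 2.34, SE 0.31, limma adjusted p = 2.07e-05), from rows of 174 and 256 counts against 44.7 and 37.5 in control. In SNHG3, SNORA73B had 483 and 525 counts with AT7519 and 118 and 171 in control and rose 3.53-fold (log2 1.82, SE 0.25, adjusted p = 3.01e-05). SNORA73B also lies within RCC1, a gene that overlaps SNHG3 on the same strand, so its counts need not come from SNHG3 alone. In SNHG12, SNORD99 had 186 and 165 counts with AT7519 and 57.6 and 47.6 in control and rose 3.30-fold (log2 1.72, SE 0.29, adjusted p = 0.000205). For all 3 the share of host counts was higher in both AT7519 libraries than in both control libraries.

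SNORD78, in GAS5, had 242 and 363 counts with AT7519 and 171 and 125 in control and rose 2.02-fold, against 2.54-fold for its host (log2 1.02, SE 0.26, limma adjusted p = 0.00394). Per 1000 counts of GAS5 it had 4.30 and 5.09 counts with AT7519 and 6.51 and 5.25 in control, so its share was no higher with AT7519. The call was lost without AT7519 replicate 2 (log2 0.73), without control replicate 2 (0.79) and with mitochondrial mRNAs set equal (0.11). The remaining GAS5 snoRNAs with a row were at 0 in every library, which does not show absence, apart from SNORD74, which stayed below the filter.

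**Figure D3:**
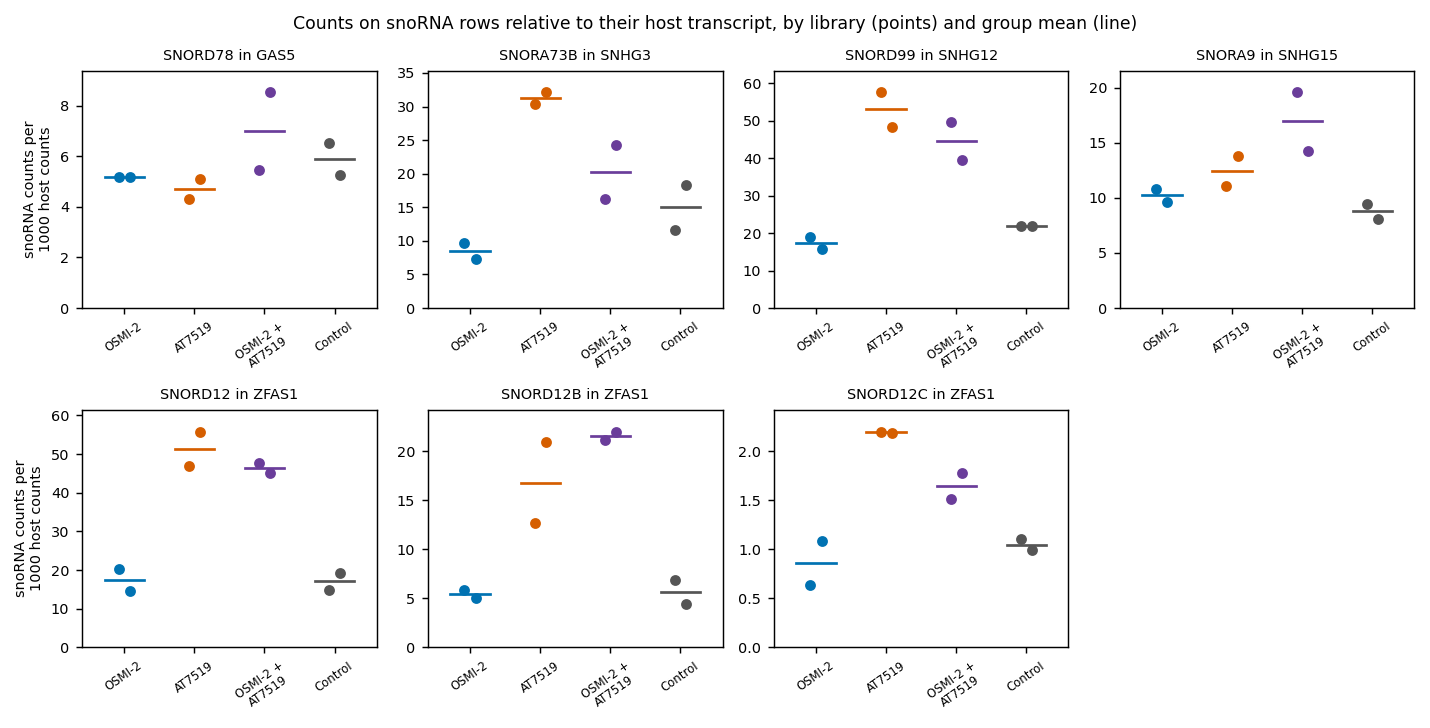
Counts on 7 snoRNA rows per 1000 counts of the host transcript (vertical axes, from 0) in every library, with OSMI-2, AT7519, the combination and control from left to right; points are libraries and lines are group means. SNORD12 per ZFAS1 lies between 45.2 and 55.8 in the libraries with AT7519 and between 14.5 and 20.2 in those without, while SNORD78 per GAS5 lies between 4.30 and 8.54 in all.

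The combination was compared with AT7519 to ask what blocking OGT changed once the kinases were inhibited. Of the host transcripts 6 of 10 fell and none rose (limma adjusted p below 0.05), where 12.5% of tested genes were called lower and 7.21% higher. Those that fell were SNHG15, SNHG12, SNHG7, SNHG3, SNHG1 and SNHG6. The median log2 change of the 10 was -0.272, against -0.017 over all tested genes. GAS5, ZFAS1, SNHG8 and SNHG5 were not called.

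SNHG15 had 10317 and 9067 counts with the combination and 15726 and 18569.7 with AT7519, a 1.77-fold fall (log2 -0.82, SE 0.095, limma adjusted p = 0.000128). SNHG12 had 1997 and 1840.1 counts with the combination and 3232 and 3398 with AT7519, a 1.73-fold fall (log2 -0.79, SE 0.11, adjusted p = 0.000388). These 2 hosts were clear of the AT7519 libraries by the widest margin in relative terms and were called under every alternative. SNHG7 had 3906 and 2919.7 counts with the combination and 4688 and 5137 with AT7519 (log2 -0.54, SE 0.13, adjusted p = 0.00904), and its combination libraries were the least alike of the 10 hosts in relative terms.

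SNHG3 had 13052 and 12357 counts with the combination and 15929 and 16327 with AT7519 (log2 -0.34, SE 0.077, limma adjusted p = 0.00692). SNHG1 had 32158 and 29945 counts with the combination and 33773 and 42732 with AT7519 (log2 -0.29, SE 0.095, adjusted p = 0.0447). SNHG6 had 6244 and 6241 counts with the combination and 7388 and 7483 with AT7519 (log2 -0.25, SE 0.082, adjusted p = 0.0449). None of the 3 overlapped between the groups. SNHG1 and SNHG6 were close to the threshold and lost their calls under most alternatives, SNHG1 most of all without AT7519 replicate 2 (log2 -0.12). Without combination replicate 2 the calls of SNHG3 (log2 -0.31) and SNHG7 (log2 -0.33) were lost as well.

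The 4 hosts that were not called lay near their AT7519 levels. ZFAS1 had 17591 and 18488 counts with the combination and 16133 and 17719 with AT7519 (log2 0.09, SE 0.081). GAS5 had 60645 and 58950.3 counts with the combination, between its 2 AT7519 values of 56315 and 71384 (log2 -0.08, SE 0.096). SNHG8 had 15755 and 14976 counts with the combination (log2 0.04, SE 0.080), also overlapping AT7519. SNHG5 had 5172 and 5347 counts with the combination, just under its lower AT7519 library (log2 -0.16, SE 0.095, limma adjusted p = 0.257).

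A pair of the snoRNA rows fell beside their hosts in the combination. SNORA73B had 212 and 301 counts with the combination and 483 and 525 with AT7519 (log2 -0.99, SE 0.25, limma adjusted p = 0.0132), in SNHG3. SNORD99 had 99.4 and 72.9 counts with the combination and 186 and 165 with AT7519 (log2 -1.03, SE 0.29, adjusted p = 0.0248), in SNHG12. Each of these calls depended on single libraries. That of SNORA73B was lost without AT7519 replicate 2 (log2 -0.93) or combination replicate 1 (-0.74), and that of SNORD99 without AT7519 replicate 1 (-0.94) or combination replicate 2 (-0.81). The other 5 rows were not called.

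Against control, the combination left 9 of the 10 hosts higher and SNHG12 lower (limma adjusted p below 0.05), with 26.3% of tested genes called higher and 27.6% lower. The median log2 change was 0.830, against 0.022 over all tested genes. SNHG1 at 1.32 (SE 0.095), GAS5 at 1.26 (SE 0.096), ZFAS1 at 1.15 (SE 0.081) and SNHG15 at 1.04 (SE 0.095) had the largest log2 changes. SNHG12 had 1997 and 1840.1 counts with the combination and 2636 and 2178 in control (log2 -0.32, SE 0.11, adjusted p = 0.0241), with both combination libraries below both control libraries. Its call was lost with equal upper quartiles (log2 -0.028, adjusted p = 0.842) and after quantile normalisation (-0.066, adjusted p = 0.657), both close to 0. It was also lost without the variance trend (adjusted p = 0.0750), without combination replicate 2 (log2 -0.26) or without control replicate 1 (-0.18). SNHG7 (log2 0.42, limma adjusted p = 0.0119) lost its call without combination replicate 1 (0.21), without control replicate 2 (0.31), with equal totals (0.16) and without the variance trend, and SNHG3 lost its call with equal totals (0.13). When mitochondrial mRNAs were set equal, 2 hosts were called higher than in control (GAS5 and SNHG1) and 5 lower (SNHG3, SNHG6, SNHG7, SNHG8 and SNHG12). Of the 19393 tested genes, 425 were then called higher and 14590 lower. ZFAS1 (log2 0.17), SNHG15 (0.06) and SNHG5 (0.002) lost their calls on that scale.

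Set against OSMI-2, the combination had 9 of 10 hosts higher (limma adjusted p below 0.05; 27.5% of tested genes were called higher and 27.3% lower). The largest log2 changes were those of SNHG1 (1.65, SE 0.095), SNHG15 (1.42, SE 0.095) and GAS5 (1.25, SE 0.096). SNHG12 differed by less than its spread, with 1997 and 1840.1 counts with the combination and 1853 and 1999 with OSMI-2 (log2 -0.01, SE 0.11, adjusted p = 0.971). Its call and sign depended on the scale. SNHG12 was called higher with equal upper quartiles (log2 0.29, adjusted p = 0.0363), and lower with equal totals (-0.34, adjusted p = 0.0225) and with equal mitochondrial mRNAs (-0.86, adjusted p = 3.29e-08). SNHG7, at 0.51 on the deposited scale, lost its call with equal totals (log2 0.18) and without combination replicate 1 (0.30), and was called lower with equal mitochondrial mRNAs (-0.34). On that last scale 4 hosts were called higher and 2 lower, where 421 of the 19393 tested genes were called higher and 13515 lower.

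**Figure D4:**
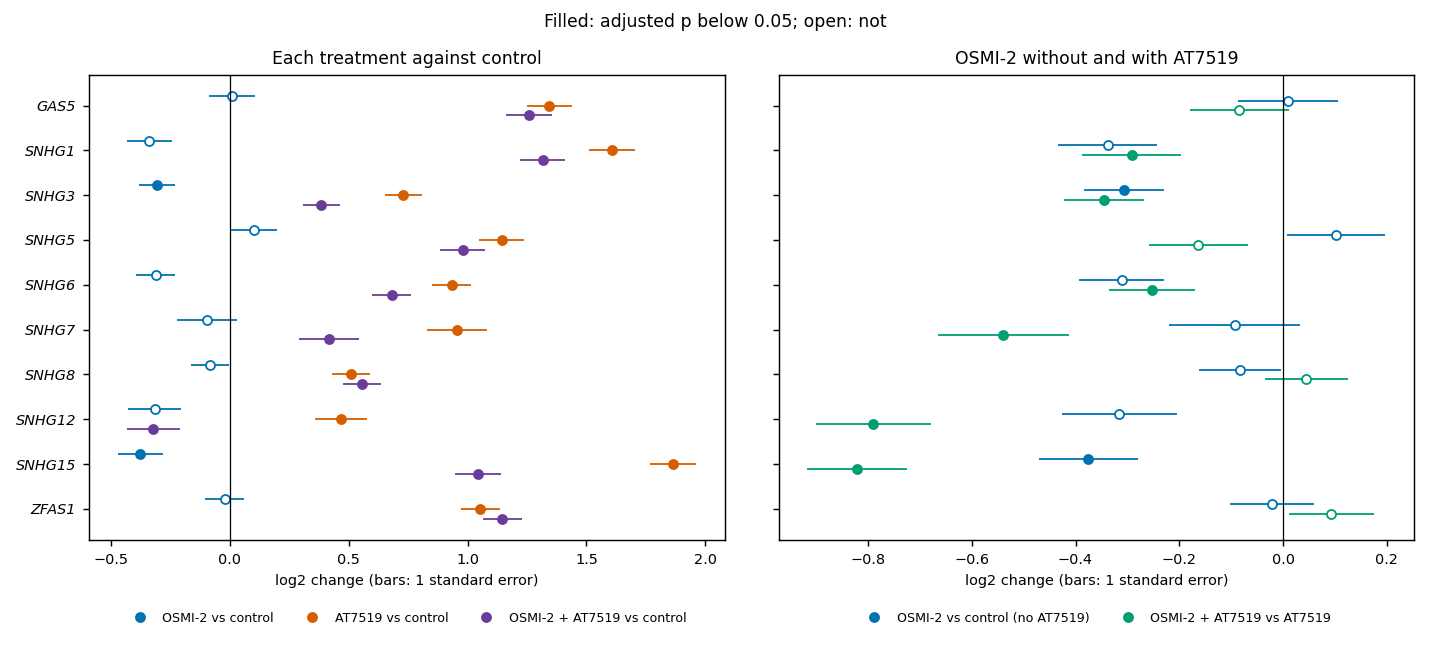
Log2 change of each host transcript (horizontal axes; bars are 1 standard error of the limma fit), with OSMI-2, AT7519 and the combination each against control on the left and the effect of OSMI-2 without and with AT7519 on the right; filled points have an adjusted p below 0.05. SNHG15 and SNHG12 lie at -0.82 and -0.79 when OSMI-2 was added to AT7519, and GAS5, SNHG8 and ZFAS1 lie within 0.1 of 0 in both settings on the right. The comparisons share libraries.

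With OSMI-2 alone few genes were called. Of the 10 hosts 2 fell and none rose (limma adjusted p below 0.05), where 2.38% of tested genes were called lower and 0.645% higher. SNHG15 had 3538 and 3699.7 counts with OSMI-2 and 4725 and 4662 in control (log2 -0.38, SE 0.095, limma adjusted p = 0.0496). SNHG3 had 7788 and 7929.7 counts with OSMI-2 and 10136 and 9319 in control (log2 -0.31, SE 0.077, adjusted p = 0.0467). Both were just inside the threshold, and both calls were lost on leaving out any 1 of the OSMI-2, control or combination libraries, with log2 changes of -0.41 to -0.34 for SNHG15 and -0.37 to -0.25 for SNHG3.

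SNHG1 had 9870.5 and 9859 counts with OSMI-2 and 12429.8 and 12509 in control, a log2 change of -0.34 with an SE of 0.095. SNHG6 had 3059.6 and 3219 counts with OSMI-2 and 3798 and 3992 in control (log2 -0.31, SE 0.082). SNHG12 had 1853 and 1999 counts with OSMI-2 and 2636 and 2178 in control (log2 -0.32, SE 0.11). The limma adjusted p were 0.0705, 0.0575 and 0.139, so none passed. In all 3 both OSMI-2 libraries lay below both control libraries, a separation that was not counted over all genes. SNHG1 and SNHG6 were called lower with the replicate block (adjusted p = 0.0493 and 0.0468), with DESeq2 on recovered reads (0.0208 and 0.0083), with only the libraries compared, with equal mitochondrial mRNAs, and without either AT7519 library. edgeR's quasi-likelihood test on recovered reads did not call them (adjusted p = 0.0722 and 0.0512). The 10 hosts had a median log2 change of -0.200, against -0.018 over all tested genes.

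The other 5 hosts differed from control by at most 0.10 on the log2 scale. GAS5 had 25137 and 25140.5 counts with OSMI-2, within its control range of 23743 to 26274. ZFAS1 had 7670.5 and 8404 counts with OSMI-2 and 7971 and 8329.5 in control, and SNHG7 had 2334 and 2403 counts with OSMI-2 and 2716 and 2352 in control. Those groups overlapped. SNHG8 had 9665 and 10087 counts with OSMI-2, just below control, and SNHG5 had 2949 and 2777 counts with OSMI-2, the only host with both libraries above control. Of the snoRNA rows, SNORA73B alone was called, at 75.6 and 58.0 counts with OSMI-2 and 118 and 171 in control (log2 -1.09, SE 0.25, limma adjusted p = 0.033). That call was lost without OSMI-2 replicate 1 (log2 -1.28), OSMI-2 replicate 2 (-0.90) or control replicate 2 (-0.82).

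The interaction asks whether OSMI-2 acted differently with AT7519 than without it. None of the 10 hosts was called (limma adjusted p below 0.05), where 1.04% of tested genes were called in either direction. At an unadjusted p below 0.05 there were 3 hosts, and 1962 of the 19393 tested genes. The 3 hosts were SNHG15 (log2 -0.45, SE 0.13), SNHG12 (-0.47, SE 0.16) and SNHG7 (-0.45, SE 0.18), with limma adjusted p of 0.176, 0.232 and 0.381. On recovered reads edgeR's quasi-likelihood test called none and DESeq2 called SNHG15 (log2 -0.46, Benjamini-Hochberg adjusted p = 0.0436). SNHG1, SNHG3 and SNHG6 had interaction terms between -0.04 and 0.06, each smaller than its SE.

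Several hosts start beside or run across a protein-coding gene, by GENCODE release 29. ZBTB37, a zinc finger gene on the other strand, starts within GAS5 and overlaps it by 801 bases. It had 1931 and 1557 counts with AT7519 and 6707 and 6260.0 in control, a 3.74-fold fall (log2 -1.90, SE 0.15, limma adjusted p = 2.18e-07). ZNFX1, also on the other strand, starts within ZFAS1 and overlaps it by 249 bases. ZNFX1 had 2629.9 and 3013 counts with AT7519 and 4276 and 3920.3 in control, a 1.45-fold fall (log2 -0.54, SE 0.10, adjusted p = 0.000454). With the combination ZNFX1 fell 1.99-fold against control (log2 -0.99, SE 0.10). In these pairs the host rose and the overlapping mRNA fell, and how reads on the shared bases were counted was not tested.

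SLC3A2, which codes for the heavy chain of amino acid transporters and starts divergently from SNHG1, was not called with AT7519 (log2 0.09, SE 0.12, limma adjusted p = 0.562). RCC1, the nucleotide exchange factor of the GTPase Ran, starts 37 bases from SNHG3 on the same strand and overlaps it. With AT7519 RCC1 had 11681 and 11750.0 counts, against 11415 and 12502 in control (log2 -0.03, SE 0.084, adjusted p = 0.801), while SNHG3 rose. With OSMI-2 RCC1 had 9261 and 8265 counts and fell 1.37-fold (log2 -0.45, SE 0.084, adjusted p = 0.016), and it also fell in the combination against AT7519 (log2 -0.49, SE 0.084, adjusted p = 0.00143). RCC1's OSMI-2 call was lost without OSMI-2 replicate 2 (log2 -0.37) or control replicate 2 (-0.38).

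Where genes overlap, a read may be given to either gene or to none. FAM69B, on the other strand of the end of SNHG7, rose 1.70-fold with AT7519 (log2 0.76, SE 0.12, limma adjusted p = 0.000112), and MCMDC2 and TRNAU1AP beside SNHG6 and SNHG12 were not called. GAS5-AS1 had 7.61 and 33.6 counts with AT7519, 11.3 and 7.29 with the combination, 19.6 and 20.7 with OSMI-2, and 24.1 and 20.1 in control. The library kit was strand-specific per the extract protocol. The sources used here do not give the strand setting of the counting, so reads of overlapping partners cannot be told apart.

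**Figure D5:**
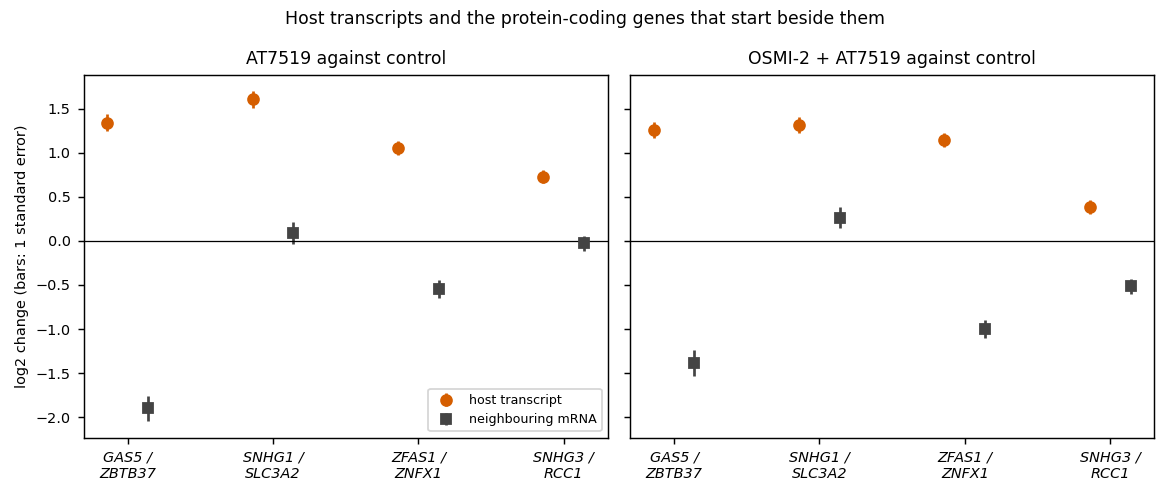
Log2 change (vertical axis; bars are 1 standard error of the limma fit) of 4 host transcripts (orange circles) and of the protein-coding gene that starts beside each (dark squares), for AT7519 and for the combination against control. ZBTB37 and ZNFX1 lie at -1.90 and -0.54 with AT7519 while GAS5 and ZFAS1 lie at 1.34 and 1.05, and SLC3A2 and RCC1 lie within 0.1 of 0 with AT7519.

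Other genes of the pathway were read from lists chosen with earlier results of these data known. Of 8 other non-coding snoRNA hosts tested, 6 rose and none fell with AT7519, with a median log2 change of 0.580. Among all tested genes 26.0% were called higher and 27.2% lower. SNHG17, at 4691 and 6928 counts with AT7519 and 1696 and 1789 in control, rose 3.27-fold, and SNHG10 rose 1.57-fold. At equal mitochondrial mRNAs 1 of these 8 was higher and 6 were lower, where 383 of the 19393 tested genes were higher and 14656 lower. With OSMI-2, 3 of the 8 fell, namely SNHG9 (1.37-fold), SNHG16 (1.33-fold) and DANCR, where 2.38% of all tested genes were called lower.

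Of 47 protein-coding genes with snoRNAs in their introns, 41 rose and 1 fell with AT7519 on the deposited scale, with a median log2 change of 0.795. Among all tested genes 26.0% were called higher and 27.2% lower. The 47 include ribosomal protein genes that are counted again below, and NOP56 and DKC1 are also on the list of snoRNA-binding proteins. They also include RCC1, which overlaps SNHG3 and its snoRNA SNORA73B. These lists are therefore not independent. EIF4A1, a translation initiation helicase, had 8309.5 and 14035 counts with AT7519 and 1097 and 1050 in control, a 10.1-fold rise. A readthrough gene with SENP3 overlaps EIF4A1 on the same strand, and how reads shared with it were counted was not tested. TAF1D, a subunit of an RNA polymerase I factor, rose 2.68-fold. WDR43, a ribosome biogenesis factor, fell 1.26-fold. With OSMI-2, 9 of the 47 fell and none rose, where 2.38% of all tested genes were called lower. NCL, the nucleolar protein nucleolin, was down 1.45-fold and CCT6A, a chaperonin subunit, 1.44-fold. At equal mitochondrial mRNAs AT7519 left 3 of the 47 higher and 14 lower, and with quantile normalisation 21 higher and 6 lower. Of all 19393 tested genes, 383 were higher and 14656 lower on the first scale, and 5258 and 4611 on the second.

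Proteins that bind snoRNAs or assemble them into particles were mixed with AT7519, where 9 of 16 rose and 2 fell (median log2 change 0.417; 26.0% of all tested genes were called higher and 27.2% lower). NHP2L1, which binds the kink-turn of C/D snoRNAs, rose 1.68-fold and FBL, the methyltransferase fibrillarin, rose 1.58-fold. The assembly factors ZNHIT6 and SHQ1 fell 2.46-fold and 1.26-fold. With OSMI-2, 8 of the 16 fell and none rose, where 2.38% of all tested genes were called lower. Among the 8 were GAR1 (1.49-fold) and NOP58 (1.44-fold), core proteins of H/ACA and C/D particles. In the combination against AT7519, 11 of the 16 fell, where 12.5% of all tested genes were called lower. Once mitochondrial mRNAs were set equal, 15 of the 16 were lower with AT7519 and none higher. On that scale 14656 of the 19393 tested genes were called lower and 383 higher.

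Factors of nonsense-mediated decay, the pathway that degrades several spliced hosts, split with AT7519 into 5 of 20 that rose and 9 that fell (median log2 change -0.070, against -0.004 over all tested genes). The share that rose was close to the 26.0% of all tested genes called higher, and 27.2% were called lower. PNRC2, a decapping adaptor, had 1506 and 1160.2 counts with AT7519 and 4755 and 4599 in control and fell 3.54-fold. SMG9, a subunit of the UPF1 kinase complex, fell 2.84-fold. The exon junction proteins EIF4A3 and MAGOHB rose 1.42-fold and 1.35-fold. With OSMI-2, MAGOHB fell 1.43-fold and the release factor ETF1 1.23-fold, and none rose. Thus 2 of the 20 fell, where 2.38% of all tested genes were called lower. With mitochondrial mRNAs set equal all 20 were lower with AT7519, as were 14656 of the 19393 tested genes.

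Cytosolic ribosomal protein mRNAs are known for the pyrimidine start that many snoRNA hosts share, but their own starts were not searched separately here. They rose in 79 of 79 cases with AT7519, with a median log2 change of 0.827. Among all tested genes 26.0% were called higher. Some of the 79 also host snoRNAs and were counted above. After quantile normalisation 52 of the 79 were called higher, and with mitochondrial mRNAs set equal 2 were. On those scales 5258 and 383 of the 19393 tested genes were called higher. With OSMI-2, 3 of the 79 fell, where 2.38% of all tested genes were called lower. Among 10753 other genes with a mean of at least 500 counts, the 5 whose log2 changes over the 6 treated libraries lay closest to the median of the hosts were RPL34, HNRNPDL, NDUFA4, RP6-109B7.3 and RPL38. Their root mean square differences from that median were 0.068 to 0.085, against 0.118 for SNHG6, the nearest host, and 0.733 for SNHG12, the farthest.

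Per kilobase of merged exons in GENCODE release 29, levels in control spanned from 11332 ± 353 normalised counts for SNHG8 to 564 ± 76 for SNHG12. Between them came GAS5 (6887.5 ± 493), ZFAS1 (3634 ± 113), SNHG1 (3319.9 ± 14.9), SNHG6 (3124 ± 110), SNHG3 (2379.5 ± 141), SNHG15 (1287 ± 12.2), SNHG5 (950.3 ± 34.6) and SNHG7 (583 ± 59.4). SNHG7 and SNHG12 did not differ beyond their spread. With AT7519, GAS5 (17584 ± 2935) and SNHG8 (16159 ± 1241) overlapped at the top and SNHG15 (4702 ± 551) moved above SNHG3 (3945 ± 68.7). The sources used here do not give the annotation used for counting, so these levels rest on GENCODE lengths. Together the 10 hosts took 0.148% and 0.179% of all counts with AT7519 and 0.0921% and 0.0876% in control.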

How the data were processed

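Strand-specific TruSeq RNA libraries of LNCaP cells were sequenced, per the labels' protocols. The authors deposited a signal per gene and library, gene read counts divided by 1 factor per library. The submitters' processing notes name hg19 and GRCh37 as builds and list STAR, HTSeq and DESeq2. The sources used here give neither versions nor annotation. Dividing by the smallest step gave whole reads for 100% of values within 0.01, at 60152710 to 154367238 reads a library. A floor of 3 reads is 1.76 to 5.47 normalised counts and covers counting error only. Lines without a gene name (28) were dropped. Replicates differed by more than counting error (chi-square per degree of freedom 20.8 to 32.7).

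Genes with a mean of at least 10 (19393) were tested on log2(value + 1) with limma 3.58.1 (R 4.3.3, mean-variance trend, 4 group means, 4 residual and 10.1 prior degrees of freedom), two-sided, with Benjamini-Hochberg adjustment over all tested genes of a comparison and a threshold of 0.05. On recovered reads edgeR 4.0.16 called 10420 genes with AT7519 against control and 667 with OSMI-2, against 10323 and 586 by limma. DESeq2 1.42.0, other pseudocounts, filters and scales, and leaving out each library were alternatives. Scripts used Python 3.11.15 and were tested on simulated data. Deviations of equally numbered replicates correlated at r = 0.0207 to 0.123 over 6 pairs of groups, with 1 over 0.1, so the numbers were not taken as pairing.

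The members and lists were chosen with earlier results of these data known. Named were all members, snoRNAs of the members with a mean of at least 10, up to 2 called genes each way from other lists, overlapping or divergent neighbours, and the 5 most alike genes. DANCR, as the last of 3 falls, and ribosomal protein genes by count alone depart from that rule, chosen after their values were seen.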

Additional observations from a re-analysis of the deposited data

How the results depend on the processing

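With OSMI-2 against control, 2 hosts and 586 genes were called. The hosts called numbered 1 with a pseudocount of 0.5, 0 with no filter (101 genes), 0 with equal totals (262 genes), 0 with equal upper quartiles, 0 after quantile normalisation and 0 without the variance trend (0 genes). They numbered 4 with equal mitochondrial mRNAs (1271 genes), 4 with DESeq2 (1496 genes), 4 with only the libraries compared (1412 genes) and 4 with the replicate block, the added ones being SNHG1 and SNHG6. Leaving out 1 library gave 0 to 4 hosts and 2 to 892 genes, with 0 hosts without any 1 of the OSMI-2, combination or control libraries. With AT7519 against control, equal mitochondrial mRNAs called 5 hosts in place of 10 and turned SNHG3 (log2 -0.19), SNHG8 (-0.41) and SNHG12 (-0.45) lower, and every other alternative kept at least 8 of 10 called, all higher. The same scale turned SNHG3 (-0.59), SNHG6 (-0.30), SNHG7 (-0.56) and SNHG8 (-0.42) in the combination against control, and SNHG3 (-0.16), SNHG7 (-0.34) and SNHG8 (-0.22) against OSMI-2, where SNHG12 was 0.29 on equal upper quartiles and -0.34 with equal totals. In the combination against AT7519, 6 hosts and 3815 genes became 3 hosts after quantile normalisation, 2 hosts and 865 genes without the variance trend, and 2428 genes with only the libraries compared. Leaving out 1 library gave 2 to 5 hosts and 1683 to 3860 genes, the fewest without combination replicate 2, the shallowest library. The interaction's 201 genes became 33 with no filter, 127 after quantile normalisation, 558 with DESeq2 (1 host), 0 without the variance trend, 404 with the replicate block, and 2 to 490 on leaving out 1 library. Beyond these, the block changed no count of hosts called. Causes were not tested, except that equal mitochondrial mRNAs move every value by construction. With 2 libraries a group, only large changes can be called firmly, and rows of few reads, such as SNORD12C, are the least precise.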

Other observations

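A total of 4 snoRNA rows of the hosts lay below the filter. Their highest values in any library were 18.5 counts for the SNHG7 snoRNA listed as SNORA43, 6.10 for SNORA24 of SNHG8, 4.07 for SNORD74 of GAS5 and 3.31 for SNORD27 of SNHG1. The floor of 3 reads is 1.76 to 5.47 counts by library, so these levels could not be compared between groups.

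The genes of the inhibited enzymes were measured too. OGT had 31597 and 30152 counts with OSMI-2 and 24330.0 and 23509 in control. CDK9 had 8127 and 8640.2 counts with AT7519 and 4872 and 4966 in control. Both agents act on the proteins, so these levels do not check the treatment.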
